A study of Mus musculus with 8 samples.

Results

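The genes described here are 9 genes of glycolysis and the hypoxia response in mouse alveolar macrophages. They are Hif1a, Tpi1, Gapdh, Pgk1, Pgam1, Pkm, Ldha, Slc16a3 and Bnip3. They were taken by symbol from the 12701 genes of the deposited expression table, and all 9 were found and passed the filter on low values, which kept 11273 genes. The macrophages were sorted by flow cytometry from lungs of C57BL/6 mice, and RNA was sequenced from 3 libraries of naive mice without tumor, 2 libraries of mice at day 15 (d15) and 3 at day 35 (d35) after KP tumor cells were given. The KP tumor cells were grown in culture and injected into the tail vein. The labels name KP or KP-GFP cells without saying which mice received which, and the harvest window in their protocol ends before the labelled 35 days. Whether the libraries within a group stem from different mice or from pools is not in the labels, and each p-value thus reflects library-to-library spread, which may be technical.

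Glycolysis splits glucose into pyruvate in the cytosol. Triosephosphate isomerase (Tpi1), glyceraldehyde-3-phosphate dehydrogenase (Gapdh), phosphoglycerate kinase (Pgk1), phosphoglycerate mutase (Pgam1) and pyruvate kinase (Pkm) catalyse steps of its lower part. Lactate dehydrogenase A (Ldha) turns pyruvate into lactate, and the monocarboxylate transporter MCT4 (Slc16a3) carries lactate out of the cell. Hif1a encodes the oxygen-regulated subunit of the transcription factor HIF-1, whose protein is degraded when oxygen is plentiful, so its mRNA level does not report its activity. Many glycolytic genes are known HIF-1 targets, as is Bnip3, which encodes a mitochondrial outer membrane protein that marks mitochondria for removal by autophagy. Alveolar macrophages live in the oxygen-rich airspaces and are known for their reliance on fatty acid oxidation.

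Libraries held 27465745 to 39572173 recovered reads, and between 281 (Bnip3) and 41542 (Ldha) reads fell on a gene described here in a library. The 14 alveolar macrophage markers were all in the table, with Chil3 the most abundant. Of those 14, 3 rose at d35 against naive (Cd68, Car4 and Ear2) and 2 fell (Siglecf and Adgre1). The marker counts here stand beside 9.86% of all genes tested that rose and 6.32% that fell at d35. At d15 these shares were 2.37% and 2.0% (limma adjusted p under 0.05). Siglecf was at means of 719, 574 and 591 scaled CPM (counts per 1e6 reads of a library size scaled by the authors) in the naive, d15 and d35 groups, and Cd68 at 964, 1078 and 1400. On the first principal component, d35 replicate 2 lay at 14.3 against 36.6 and 30.2 for the other d35 libraries and -11.1 or below for the rest. All 9 genes had their lowest d35 value in that library. Markers of monocytes and interstitial macrophages, with 13 of 14 in the table, summed to 1015 to 1290 scaled CPM in naive, 1071 to 1157 in d15 and 1399 to 1834 in d35 libraries, with the 1399 in d35 replicate 2. Of the 13, 7 rose at d35 against naive and 1 fell. Ccr2 was at a mean of 42.3 against 16.1 and C1qb at 99.3 against 1.26, while Ly6c2 was at 0.662 against 1.04. None of these markers was without reads in any library. Epithelial and tumor cell markers, with 12 of 14 in the table, summed to 1446 to 1449 in naive, 1247 to 1363 in d15 and 1239 to 1350 in d35 libraries. Krt19 made up most of that sum, at means of 1049, 940 and 897.5. Of the 12, 4 rose and 1 fell (Epcam) at d35. The 4 were Krt8, at means of 0.262 in naive, 0.314 in d15 and 15.0 in d35, Krt18 (0.214, 0.235 and 14.6), Krt7 (0.526, 1.28 and 13.0) and Muc1 (1.59, 1.38 and 14.7). Krt8 and Krt18 thus passed the filter on low values only through d35, the group where they were high. Cycling cell markers summed to 519 to 523, 528.5 to 622 and 414 to 505. The 15 markers of dissociation and stress summed to 4576 to 8076 in naive, 8643 to 9807 in d15 and 3586 to 7699 in d35 libraries. Of these, 4 rose and none fell at d15 (Ier3, Hsph1, Dnaja1 and Hspa8), and 3 rose and 1 fell at d35. The part of these cells, or of the stress genes, in the values below was not tested, and in bulk RNA fewer cells of a type and less RNA per cell cannot be told apart.

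Per kilobase of annotated exon, the order of the 9 genes in naive macrophages ran from Ldha to Bnip3. Ldha was at 253 ± 7.79 scaled CPM per kb (SD, n = 3), above Pkm at 125 ± 4.34 and Gapdh at 124 ± 10.6, whose ranges of 121 to 130 and 114 to 135 overlapped. Tpi1 followed at 53.7 ± 1.80 and Hif1a at 32.5 ± 1.13. Pgam1 at 17.8 ± 0.27 and Pgk1 at 15.2 ± 0.41 did not overlap, and Slc16a3 lay at 12.8 ± 1.51. Bnip3 was the lowest at 4.84 ± 0.56. The terminal enzymes of the pathway were thus among the higher of these transcripts, and the order was the same at d35 as in naive macrophages. Exon lengths were those of all annotated exons of a gene together, from 1.982 kb for Pgam1 to 5.896 kb for Hif1a, which understates genes whose longest forms are not used. Gapdh, Pgk1, Pgam1 and Ldha each have 2 annotated pseudogenes named after them, and how shared reads were assigned is not given in the sources used here. Their levels are uncertain in that respect. Tpi1 and Gapdh share exon sequence with Spsb2 and Iffo1 on the opposite strand, which were at 25.6 to 30.6 and 60.4 to 110 scaled CPM. Hif1a and Bnip3 overlap antisense genes that have no row in the table, and whether counting used the strand is not given in the sources used here.

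Many glycolytic genes and Bnip3 are known HIF-1 targets. The 250 bases before each RefSeq start (GRCm38.p6, the assembly of mm10) were therefore searched for the core of the hypoxia response element. The core was taken as ACGTG or GCGTG on either strand, so that a palindromic CACGTG counts as 2 overlapping matches. The 9 genes had 11 windows, of which 9 held a match, and 8 genes had a match in at least 1 window. Of the 12845 windows that belong to measured genes, 54.6% held a match, and across all 32851 windows 38.6% did. Windows with 3 or more matches numbered 4 of 11, those of Hif1a, Pgam1, Ldha and Bnip3, against 11.5% of the windows of genes in the table. Tpi1 and the first Pkm start had none, and these letters were searched in this window only. Among the 4 genes with 3 or more matches, Pgam1 and Ldha rose at d35. Hif1a and Bnip3 did not pass the test there, and Tpi1 rose without a match. The 9 genes were chosen as genes of glycolysis and the hypoxia response. A link between the matches and the rises was not tested. Shown are the windows with the most matches among the 9 genes, those of Ldha (first start, 5 matches) and Bnip3 (5). Pgam1 (3) and Slc16a3 (2) are also shown, as the genes of the 9 with the largest rises at d35 and between d15 and d35. Matches are in capitals, and each sequence runs 5′ to 3′ on the gene's strand. They lie at chr7:46845554-46845803 (plus strand), chr7:138909507-138909756 (minus), chr19:41911621-41911870 (plus) and chr11:120948817-120949066 (plus).
Ldha: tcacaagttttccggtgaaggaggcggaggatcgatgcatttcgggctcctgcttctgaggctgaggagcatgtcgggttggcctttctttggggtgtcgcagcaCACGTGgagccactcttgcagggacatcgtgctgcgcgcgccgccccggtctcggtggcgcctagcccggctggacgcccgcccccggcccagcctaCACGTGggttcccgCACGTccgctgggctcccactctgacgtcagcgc
Bnip3: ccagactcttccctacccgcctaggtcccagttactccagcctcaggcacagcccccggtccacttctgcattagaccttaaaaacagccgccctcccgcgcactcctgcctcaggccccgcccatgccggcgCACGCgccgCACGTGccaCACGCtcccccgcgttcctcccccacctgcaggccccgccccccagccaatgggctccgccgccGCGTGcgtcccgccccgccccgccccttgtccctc
Pgam1: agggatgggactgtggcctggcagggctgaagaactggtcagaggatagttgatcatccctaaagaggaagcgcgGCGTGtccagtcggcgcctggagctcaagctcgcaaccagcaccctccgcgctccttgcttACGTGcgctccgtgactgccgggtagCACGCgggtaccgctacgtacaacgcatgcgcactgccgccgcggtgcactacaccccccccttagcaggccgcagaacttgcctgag
Slc16a3: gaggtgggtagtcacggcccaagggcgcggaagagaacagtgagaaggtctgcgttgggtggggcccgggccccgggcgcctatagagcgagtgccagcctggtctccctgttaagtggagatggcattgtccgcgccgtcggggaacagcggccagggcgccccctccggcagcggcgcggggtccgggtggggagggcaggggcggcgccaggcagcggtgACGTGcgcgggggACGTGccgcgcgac
A match is a description of the sequence and not evidence of binding.

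**Figure D1:**
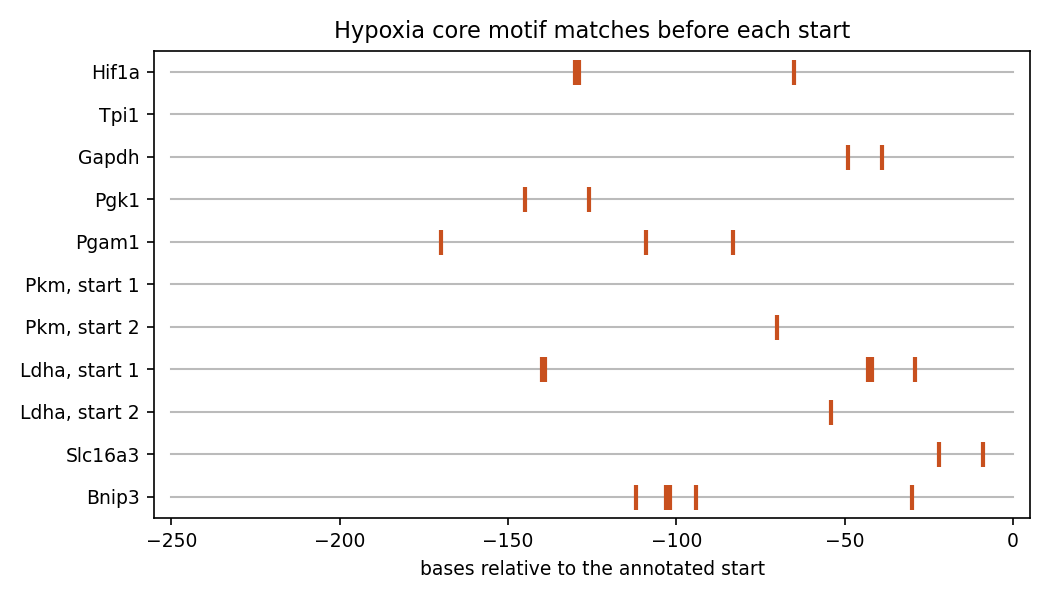
Matches to the hypoxia core motif before the annotated start of each gene. The horizontal axis gives bases relative to the start, ticks mark the end of each match nearest the start, and 4 of the 11 windows hold 3 or more matches.

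At d35 the lower glycolytic enzymes, lactate dehydrogenase A and the lactate exporter were all higher than in naive macrophages, while Hif1a and Bnip3 did not pass the test. Of the 9 genes 7 rose and none fell (limma, Benjamini-Hochberg adjusted p under 0.05 over all genes tested), against 9.86% of all genes tested that rose and 16.2% that changed (6.32% fell). At an unadjusted p under 0.05 the count was also 7 higher and 0 lower, as it was by edgeR and by DESeq2 at their adjusted p. The median log2 fold change of the 9 was 0.38, against -0.002 over all genes tested. The rises were of modest size, between 1.26-fold (Gapdh) and 1.72-fold (Pgam1) as ratios of group means. Gene positions below are those of GENCODE vM21 on mm10, where all 9 are protein coding. The values of the 3 d35 libraries lay above all 3 naive libraries for each of the 7, as they did for 20.7% of all genes tested (36.7% in either direction).

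Pgam1 (ENSMUSG00000011752, chr19:41911923-41918660, plus strand), which moves the phosphate of 3-phosphoglycerate, was at 35.9, 35.1 and 34.9 scaled CPM in naive, 39.6 and 43.9 in d15 and 67.8, 52.3 and 62.6 in d35 libraries (replicates 1 to 3, and A and B for d15). The naive libraries were tightly spaced and the groups followed one another without overlap. Its log2 fold change at d35 was 0.76 (SE 0.10, 95% interval 0.54 to 0.98, limma adjusted p = 0.00132). Pgk1 (ENSMUSG00000062070, chrX:106187100-106203699, plus strand), the first ATP-yielding step, was at 33.1, 34.4 and 34.9 in naive, 40.0 and 39.6 in d15 and 54.9, 43.7 and 52.4 in d35 libraries. It too had 3 groups in separate ranges, with d35 replicate 2 nearest to d15. The d35 change was 0.54 (SE 0.09, 95% interval 0.33 to 0.75, adjusted p = 0.00574).

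Pkm (ENSMUSG00000032294, chr9:59656368-59679375, plus strand), the pyruvate-forming step, was at 625, 606 and 649 in naive, 650 and 650 in d15 and 898, 757 and 865 in d35 libraries. Its d15 libraries sat at the top of the naive range, and the d35 libraries stood above both (log2 fold change 0.42, SE 0.08, adjusted p = 0.00771). The table gives 1 value per gene, so the M1 and M2 splice forms of Pkm are not told apart. Ldha (ENSMUSG00000063229, chr7:46841475-46855627, plus strand) was at 816, 826 and 865 in naive, 964 and 934 in d15 and 1152, 1011 and 1086 in d35 libraries, with no overlap between the groups (d35 log2 fold change 0.37, SE 0.07, adjusted p = 0.00983). Tpi1 (ENSMUSG00000023456, chr6:124810586-124814296, minus strand), which interconverts the triose phosphates, was at 145, 145 and 154, then 163 and 164, then 204, 183 and 191 (0.38, SE 0.07, adjusted p = 0.00574). Both genes had their highest value in d35 replicate 1.

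Gapdh (ENSMUSG00000057666, chr6:125161715-125166467, minus strand), a frequent reference transcript in PCR assays, was at 471, 504 and 558 in naive, 589 and 571 in d15 and 627, 614 and 688 in d35 libraries. The naive spread was wide beside that of the other enzymes, and the smallest gap between naive and d15 was that between 558 and 571. Its d35 log2 fold change was 0.33 (SE 0.08, 95% interval 0.16 to 0.51, limma adjusted p = 0.0212). This call ended without naive replicate 1 (0.28, adjusted p = 0.0738), without naive replicate 2 (0.32, adjusted p = 0.0766) and without d35 replicate 3 (0.28, adjusted p = 0.0630). It also ended when values were scaled as plain CPM of the recovered reads (0.22, adjusted p = 0.0666). The other 6 calls at d35 were made under all 19 alternative settings, including each fit that left out 1 library, the length correction and plain CPM.

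Slc16a3 did not follow the enzymes at d15. The gene (ENSMUSG00000025161, chr11:120948480-120960868, plus strand) was at 68.1, 76.3 and 60.2 in naive, 56.7 and 52.4 in d15 and 108, 88.3 and 91.8 in d35 libraries. The d15 libraries were the lowest of the 8 and the d35 libraries the highest. Against naive, the d35 change was 0.49 on the log2 scale (SE 0.10, 95% interval 0.26 to 0.72, limma adjusted p = 0.0135). The d15 change of -0.31 (95% interval -0.57 to -0.06) did not pass (adjusted p = 0.122).

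Hif1a (ENSMUSG00000021109, chr12:73901375-73947530, plus strand) was at 184, 195 and 197 in naive, 178 and 168 in d15 and 257, 185 and 193 in d35 libraries. Only d35 replicate 1 stood above the naive range, and the other d35 libraries lay within or near it. The d35 change was 0.13 on the log2 scale (95% interval -0.11 to 0.37, limma adjusted p = 0.455), and without d35 replicate 1 it was -0.02 (adjusted p = 0.882). The d15 change was -0.15 (95% interval -0.42 to 0.12, adjusted p = 0.476).

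**Figure D2:**
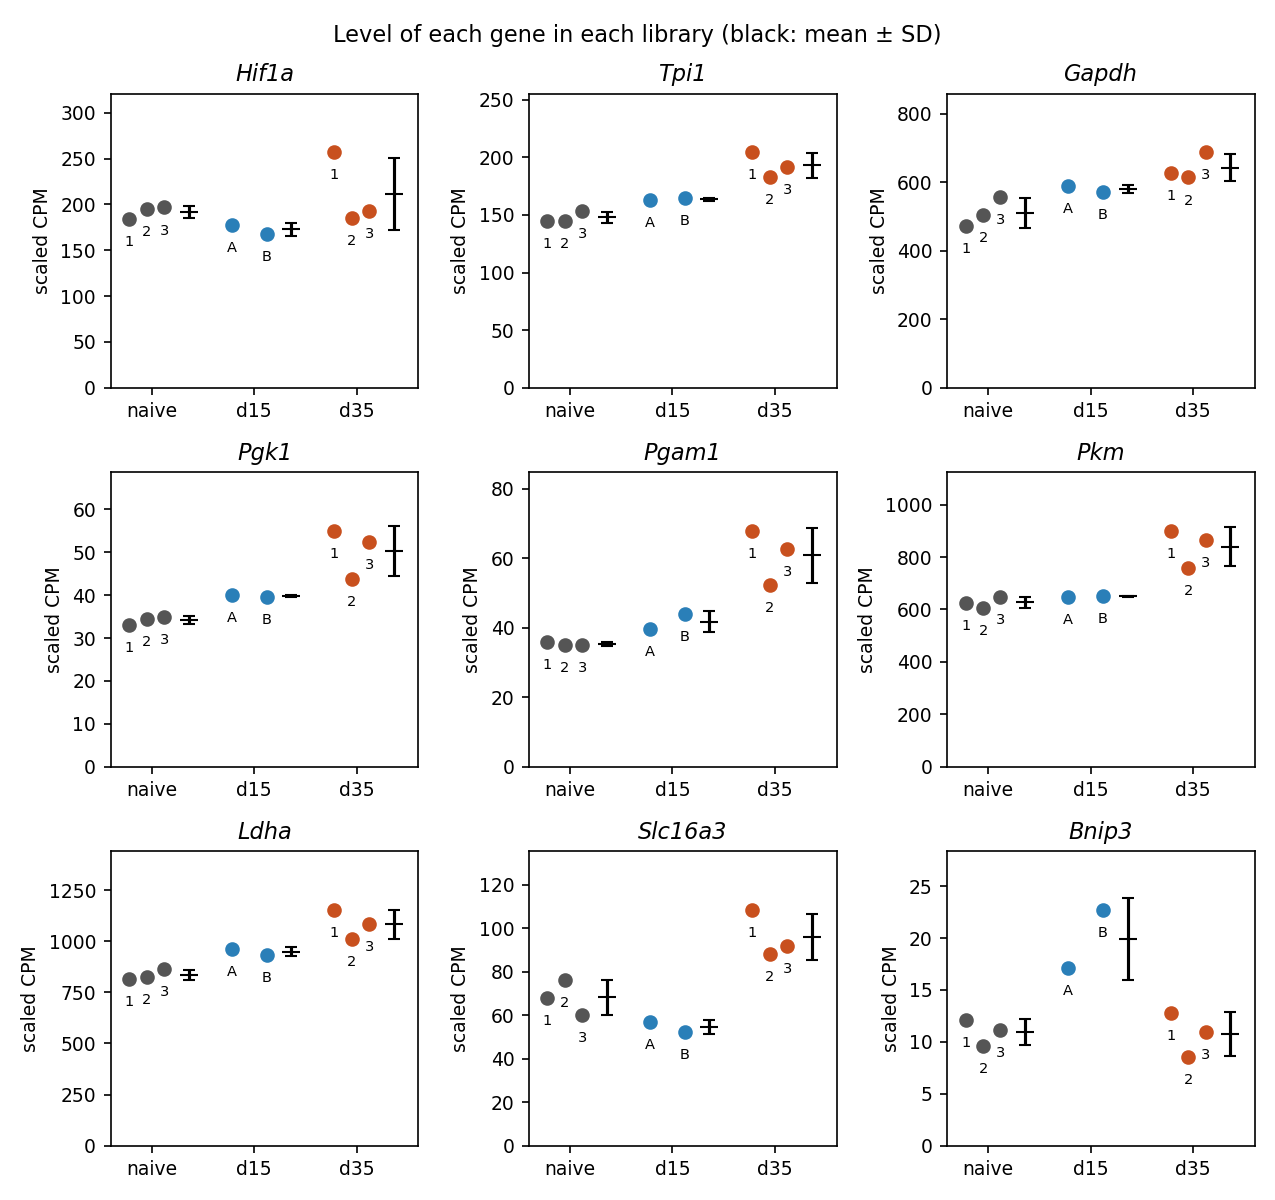
Scaled CPM of the 9 genes in each library, by group (naive, d15, d35), with the replicate written under each point and the group mean ± SD in black. In 7 panels the d35 points lie above all naive points, Hif1a has 1 high d35 library (257), and Bnip3 is highest in the d15 libraries (17.1 and 22.7).

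The scaling of the libraries bears on these sizes. The values summed to 952725 to 970971 in naive and to 1015777 to 1067620 in d35 libraries. With plain CPM of the recovered reads, the all-gene median at d35 moved on the log2 scale from -0.002 to -0.11, and that of the 9 genes from 0.38 to 0.27. The count of genes called then went from 1112 higher and 712 lower to 660 higher and 1645 lower. At d35 6 of the 9 genes still rose on that scale, all but Gapdh of the 7. At d15 the split of genes called moved from 267 higher and 226 lower to 154 and 357, and between d35 and d15 from 517 and 316 to 451 and 463.

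At d15 Bnip3 was the only one of the 9 genes to pass the test, and it rose. The share of genes called in this comparison was 4.37%, with 2.37% higher and 2.0% lower. Bnip3 (ENSMUSG00000078566, chr7:138890836-138909519, minus strand) was at 12.1, 9.60 and 11.2 scaled CPM in naive, 17.1 and 22.7 in d15 and 12.8, 8.57 and 10.97 in d35 libraries. Both d15 libraries stood above the other 6, and the d35 and naive ranges overlapped. The summed stress markers were also highest in the d15 libraries, and their part in the Bnip3 values was not tested. The mean was 19.9 ± 3.91 at d15 (SD, n = 2) against a naive mean of 10.97 ± 1.28 (SD, n = 3), which is 0.80 on the log2 scale (SE 0.18, 95% interval 0.40 to 1.20, limma adjusted p = 0.0397). Each fit that dropped a naive or d15 library ended the Bnip3 call, with an adjusted p of 0.0583, 0.138 and 0.0813 for naive replicates 1 to 3 and 0.0805 and 0.2996 for d15 A and B, as did length correction (0.0575). The log2 fold change lay between 0.61 and 0.99 over all 18 alternatives. For d15 against naive, the authors' deposited table gave Bnip3 a log2 fold change of 0.83 with an adjusted p of 0.190. In the authors' deposited table, 0 of the 9 genes were among the 389 with an adjusted p under 0.05.

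The 5 lower glycolytic enzymes and Ldha were slightly higher in the d15 than in the naive libraries, without passing the test. Their log2 fold changes ran from 0.05 (Pkm, 95% interval -0.14 to 0.24) to 0.23 (Pgam1, -0.01 to 0.48), with limma adjusted p between 0.184 (Ldha) and 0.746 (Pkm). For all 9 genes the 2 d15 libraries did not overlap the naive libraries, 7 above and 2 below, but the same held for 48.2% of all genes tested (25.9% above and 22.3% below). Over the 9, the median log2 fold change was 0.18, against 0.01 over all genes tested. After length correction it was 0.09.

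Between the times, 4 of the 9 genes differed, 3 higher and 1 lower at d35 than at d15, against 7.39% of all genes tested (4.59% higher and 2.8% lower). The groups did not overlap for any of the 9, 8 higher and Bnip3 lower, as for 38.4% of all genes tested (19.0% higher and 19.5% lower). These comparisons share libraries with those above and are not independent of them. Slc16a3 showed the largest rise, of 0.80 on the log2 scale (SE 0.12, 95% interval 0.54 to 1.06, limma adjusted p = 0.00273), and was called under all 18 alternatives. Bnip3 fell by 0.83 (SE 0.18, adjusted p = 0.0207), from 19.9 ± 3.91 to 10.8 ± 2.10 (SD, n = 3 at d35). Without d15 replicate B its difference was -0.64 (adjusted p = 0.216). Pgam1 and Pkm rose by 0.53 and 0.37 (adjusted p = 0.0185 and 0.0297).

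Both of those calls ended without d15 replicate A (Pgam1 0.45, adjusted p = 0.149; Pkm 0.37, adjusted p = 0.156) and without d15 replicate B (0.60 and 0.37, adjusted p = 0.0861 and 0.184). The Pkm call was also lost without d35 replicate 1 (0.32, adjusted p = 0.0731) and without d35 replicate 3 (0.34, adjusted p = 0.0620). Fitted on the d15 and d35 libraries alone, Slc16a3 was the only call, and Pgam1, Pkm and Bnip3 had adjusted p = 0.0623, 0.0842 and 0.0596. Pgk1 was at 0.33 (adjusted p = 0.0903) and was called without d35 replicate 2 (0.42, adjusted p = 0.0216) and by DESeq2 (adjusted p = 0.0428). Tpi1 was at 0.24 (adjusted p = 0.0832) and was called by DESeq2 (adjusted p = 0.0304). Ldha, Gapdh and Hif1a had intervals of 0.01 to 0.37, -0.05 to 0.34 and 0.01 to 0.54 and adjusted p of 0.204, 0.381 and 0.216.

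**Figure D3:**
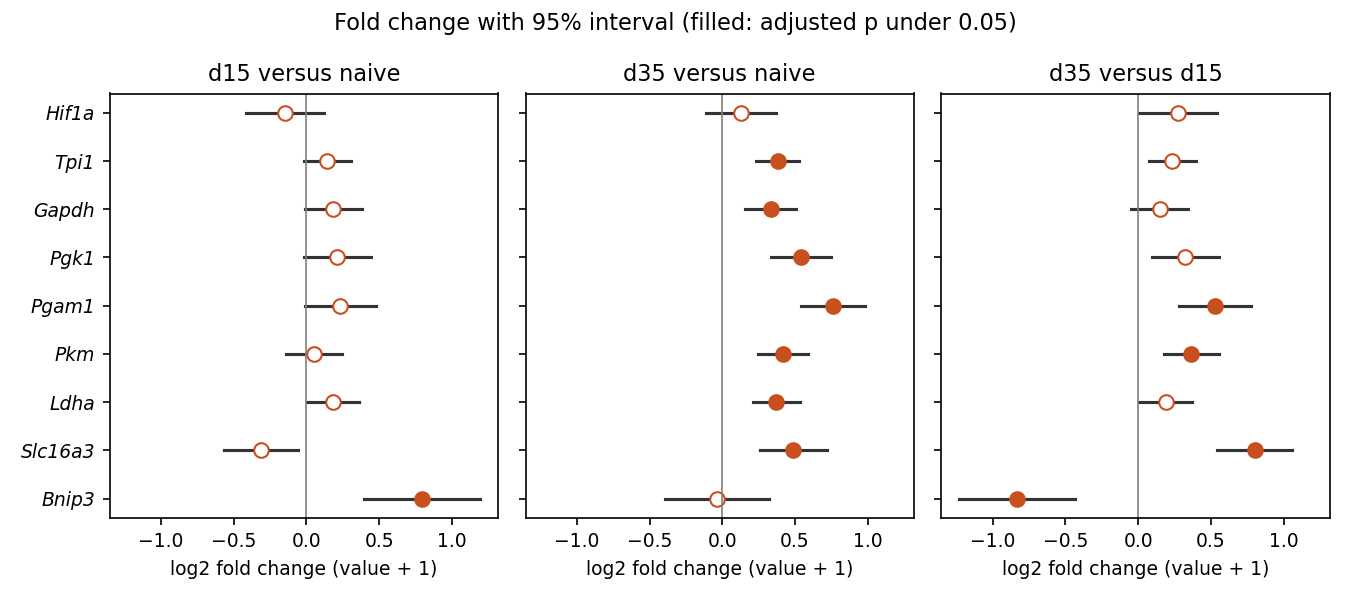
Log2 fold change (value + 1) of each gene in the 3 comparisons, with 95% intervals as bars and filled points for a limma adjusted p under 0.05. The d35 against naive panel has 7 filled points, all above 0, and Bnip3 is filled on opposite sides of 0 in the other panels.

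The rest of the pathway from glucose uptake to lactate export moved in part with these enzymes. Of 25 tested genes of this list, 7 rose and 1 fell at d35 against naive, with a list median of 0.20 on the log2 scale. Of all genes tested, 9.86% rose and 6.32% fell. Slc2a1, the glucose transporter GLUT1, rose from 28.0 ± 3.86 to 58.3 ± 15.5 scaled CPM (SD, n = 3 each, log2 fold change 1.01, limma adjusted p = 0.00773), with d35 libraries between 42.7 and 73.6. Pfkl, a subunit of the committed enzyme phosphofructokinase, rose from 60.5 ± 3.06 to 98.6 ± 18.8 (adjusted p = 0.00707). Eno1, the enolase that acts between Pgam1 and Pkm, rose from 373 ± 12.2 to 543 ± 84.5 (adjusted p = 0.00825). Slc16a1, the transporter MCT1, rose from 48.7 ± 4.33 to 71.8 ± 9.19 (adjusted p = 0.00825). These 4 were called under all 19 alternatives. Hk3, Ldhb and Bsg also rose and Slc16a7 fell, and each lost its call under at least 1 alternative. Ldhb was at 0.118 to 0.210 in naive, 0.409 to 0.473 in d15 and 0.746 to 3.59 in d35 libraries, so it passed the filter on low values only through the group where it was high. With the filter at 5 the list had 6 higher and 1 lower. Aldoa, the most abundant gene of the list per library, was at 1509 ± 51.7 against 1347 ± 46.7 and did not pass (adjusted p = 0.140), nor did Pfkp at 310 against 329 (adjusted p = 0.369) or Hk2 at 19.7 against 18.1 (adjusted p = 0.727).

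At d15 the list had a single change, a fall of Slc2a6, the lysosomal hexose transporter GLUT6, from 18.4 ± 4.52 to 8.22 ± 0.49 (SD, n = 3 and 2, limma adjusted p = 0.0224). Of all genes tested, 2.37% rose and 2.0% fell at d15. The Slc2a6 call ended when naive replicate 2 (adjusted p = 0.0812), d15 replicate A (0.115) or d15 replicate B (0.172) was dropped. Between d15 and d35, 4 of the 25 rose (Slc2a1, Slc2a6, Hk3 and Pfkl), against 4.59% of all genes tested. The call of Hk3 ended under 3 and that of Pfkl under 6 of the 18 alternatives. Fitted on the d15 and d35 libraries alone, Slc2a6 was the only call of the list. Slc2a1, Hk3 and Pfkl then had limma adjusted p = 0.0539, 0.0698 and 0.0927. Between the times Slc2a6 was called under all 18 alternatives, from 8.22 to 24.5 ± 4.72 (log2 difference 1.45, adjusted p = 0.00189). Slc2a1 differed by 1.00 (adjusted p = 0.0176), but not without d15 replicate B (0.78, adjusted p = 0.185).

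**Figure D4:**
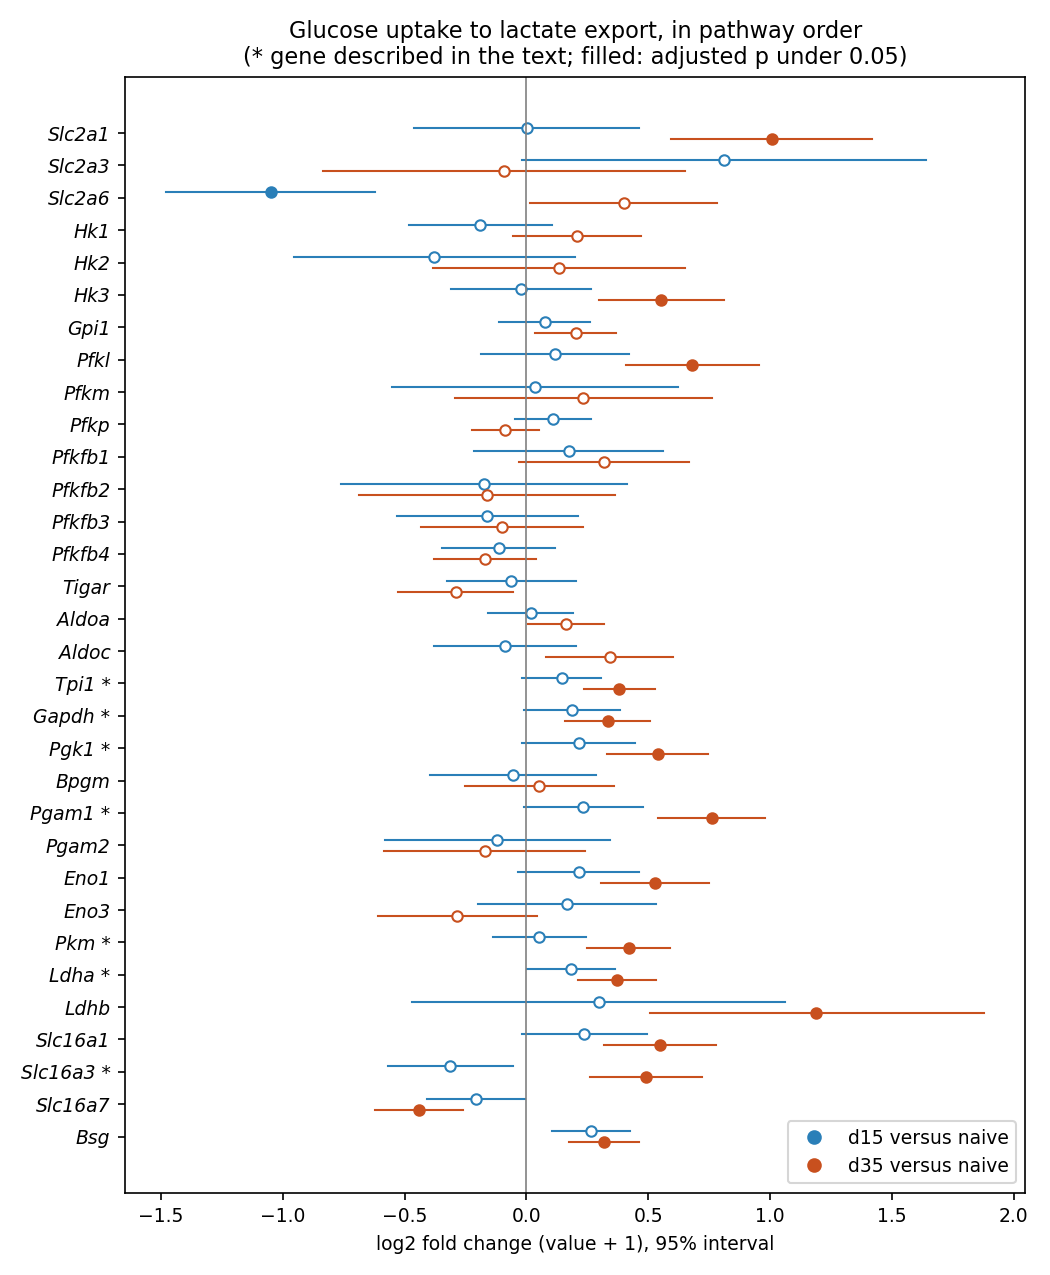
Log2 fold change (value + 1) against naive, with 95% intervals, for genes from glucose uptake at the top to lactate export at the bottom, at d15 (blue) and d35 (orange). Filled points have a limma adjusted p under 0.05, and stars mark the genes of the 9. The d35 points of the starred genes and of Eno1 are filled and lie to the right of 0, while the intervals of Bpgm, Pgam2 and Eno3 span 0.

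Oxygen sensing genes gave a mixed picture. Of 10 tested, 3 rose and 1 fell at d35, against 9.86% and 6.32% of all genes tested, with a list median of 0.09. Vhl, Elob and Rbx1, components of the ubiquitin ligase that targets HIF, rose (limma adjusted p = 0.0162, 0.0247 and 0.0221). The components Eloc (0.19 on the log2 scale, adjusted p = 0.145) and Cul2 (0.18, adjusted p = 0.160) did not pass. Without naive replicate 2 none of the 10 was called (limma adjusted p = 0.0702, 0.0708 and 0.0780 for Vhl, Elob and Rbx1). Length correction took Elob from 0.48 to 0.21 (adjusted p = 0.139), and plain CPM gave 1 higher and 2 lower for the list. Epas1, which encodes the HIF-2 alpha subunit, fell from 32.1 ± 4.43 to 17.8 ± 5.11 at d15 (adjusted p = 0.0266) and was at 20.8 ± 1.18 at d35 (adjusted p = 0.0250). At d15 Epas1 was the only one of the 10 called by limma, while 4 had an unadjusted p under 0.05, 2 higher and 2 lower. There edgeR called 0 higher and 1 lower, and DESeq2 called 1 higher and 1 lower. Endothelial cells also express Epas1, and 9 of 12 endothelial markers fell at d35 and 3 at d15, against 6.32% and 2.0% of all genes tested. The sum of the endothelial markers was 304.5 to 408 in naive, 206 to 258 in d15 and 187 to 239 scaled CPM in d35 libraries. The part of these cells in the Epas1 values was not tested. At d15 the Epas1 call ended when naive replicate 2 or 3 (adjusted p = 0.110 and 0.0723) or d15 replicate A or B (0.145 and 0.0549) was dropped.

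Among 20 tested other hypoxia-inducible genes, 2 rose and none fell at d15, and 5 rose and 1 fell at d35. Of all genes tested, 2.37% rose and 2.0% fell at d15, and 9.86% and 6.32% at d35. At d15 8 of the 20 had an unadjusted p under 0.05, 6 higher and 2 lower. There edgeR called 2 higher and 0 lower, and DESeq2 called 3 higher and 1 lower. The list medians were 0.10 and 0.12. At d15 the genes that rose were Bnip3l, the paralog of Bnip3, from 209 ± 15.5 to 271 ± 9.65 (SD, n = 3 and 2, limma adjusted p = 0.0332), and Fam162a, a mitochondrial protein gene, from 19.6 ± 1.06 to 29.6 ± 1.14 (adjusted p = 0.0266). Like the Bnip3 call, both were lost when any 1 naive or d15 library was left out, with adjusted p between 0.0522 and 0.254 for Bnip3l and between 0.0647 and 0.218 for Fam162a. Length correction ended the Fam162a call (0.30 against 0.57 on the log2 scale, adjusted p = 0.109), and plain CPM ended that of Bnip3l (adjusted p = 0.0560). At d35 Slc2a1, Mif, Hmox1, Ak4 and Fam162a rose and Bhlhe41 fell. Ak4 reached at most 0.185 in naive and 0.0815 in d15 libraries and 0.289 to 2.13 in d35 libraries, so it too passed the filter only through the group where it was high. With the filter at 5 the list had 4 higher and 1 lower, and the Ak4 call ended under 9 of its 16 alternatives. Length correction took Fam162a at d35 from 0.42 to 0.03 (adjusted p = 0.849) and Mif from 0.70 to 0.29 (adjusted p = 0.0616). The d35 call of Fam162a also ended without naive replicate 1, 2 or 3 (adjusted p = 0.0749, 0.0613 and 0.0555), without d35 replicate 3 (0.0653) and with plain CPM (0.0629). Hmox1, the heme oxygenase gene, was at 203 ± 22.6 against 131 ± 7.41 (adjusted p = 0.00212) and was called under every one of the 19 alternatives. Of the 14 genes of this list that did not pass at d35, 4 with means below naive are given as examples. Vegfa was at 3.89 against 4.28 and Car9 at 9.56 against 9.62 scaled CPM (limma adjusted p = 0.921 and 0.952). Pdk1 was at 54.8 against 57.9 and Ndrg1 at 5.06 against 7.15 (0.615 and 0.164). Others lay above naive, with Higd1a at 12.2 against 9.35, P4ha1 at 113 against 95.8 and Ankrd37 at 1.21 against 0.27 (0.0953, 0.127 and 0.088). Ankrd37 passed the filter on low values only through d35. At an unadjusted p under 0.05, 8 of the 20 were higher and 1 lower at d35. Of 8 mitophagy receptor genes, Bnip3l alone changed at d15 and none at d35 (limma), against 4.37% and 16.2% of all genes tested. At an unadjusted p under 0.05 there were 2 at d15, Bnip3l and Fundc1, and 0 at d35, and edgeR and DESeq2 likewise called 1 at d15 and 0 at d35.

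Genes that carry pyruvate into the mitochondrion and through the tricarboxylic acid cycle were a list of 30. None of the 30 passed at d15 (limma), where 10 had an unadjusted p under 0.05, 7 higher and 3 lower. There edgeR called 0, and DESeq2 called 4 higher and 0 lower. At d35 7 rose and none fell, against 9.86% and 6.32% of all genes tested, with a list median of 0.07. With plain CPM of the recovered reads the split was 3 higher and 3 lower. The 7 that rose in the main fit included Mpc1, a subunit of the pyruvate carrier, the succinate dehydrogenase subunits Sdhb, Sdhc and Sdhd, and Idh3b and Mdh2. Without naive replicate 2 only 2 of the 30 were called higher, and Mpc1, Sdhc, Idh3b and Mdh2 lost their calls. Idh3b lost its call under 11 and Mpc1 under 6 of the 19 alternatives. Length correction took Sdhd from 0.38 to 0.09 on the log2 scale (limma adjusted p = 0.390), and the list then had 3 higher and 0 lower. Sdhb rose from 129.5 ± 11.5 to 184 ± 19.4 (limma adjusted p = 0.00794) and was called under all 19 alternatives. The pyruvate dehydrogenase subunit Pdha1 was at 90.8 against 97.9 (adjusted p = 0.350). In the pentose phosphate pathway 2 of 8 rose at d35, against 9.86% of all genes tested. They were Pgd (538 ± 59.3 against 428.5 ± 14.4, limma adjusted p = 0.0326) and Taldo1 (1137 against 967, adjusted p = 0.0463). Neither was called with plain CPM or without naive replicate 2. Over all these lists 26 genes were called at d35, of which 6 were called under every alternative. The 26 include Ldhb and Ak4, which passed the filter on low values only through d35. Leaving out naive replicate 2 ended 16 of the 26 calls, naive replicate 1 ended 11, naive replicate 3 ended 9 and d35 replicate 1 ended 8. Leaving out d35 replicate 3, d35 replicate 2, d15 replicate A or d15 replicate B ended 6, 1, 4 and 4, and length correction ended 12. Plain CPM ended 9 of them and the replicate block 5.

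Across the 8 libraries, the 5 lower glycolytic enzymes and Ldha had similar patterns, with Pearson r of log2 values between 0.83 (Gapdh and Pkm) and 0.99 (Tpi1 and Ldha). The libraries form 3 groups and share their scaling, so these r describe the shared group pattern and have no p. Bnip3 had r between -0.64 (with Slc16a3) and 0.03 (with Ldha) to the other 8. Among 8668 other tested genes whose log2 values averaged 3 or more, those most like each of the 9 were found by the same r. For Ldha, Tpi1 and Pgk1 these included H2-M3 (r = 0.990, 0.991 and 0.993), a class I histocompatibility gene at means of 43.1, 51.9 and 67.9 scaled CPM in naive, d15 and d35. Clec4a2 (0.989) was next for Ldha and Hpcal1 (0.990) for Tpi1, while H2-T23 (0.995) came before H2-M3 for Pgk1. H2-D1 (0.996) and H2-M2 (0.991) were most like Pgam1, Plekho1 (0.992) and Anxa3 (0.984) most like Pkm, and Clic1 (0.995) and Prdx2 (0.994) most like Gapdh. Fblim1 (0.995) and Cmtm7 (0.988) shared the low d15 and high d35 levels of Slc16a3, with Cmtm7 at 22.2, 17.3 and 33.0. Erlin2 (0.971) and Tmem106a (0.961) were most like Hif1a, and Wdr89 (0.981) and Cd33 (0.968) most like Bnip3, with Cd33 at 184, 235 and 180. Class I histocompatibility genes have close copies, so their values are uncertain in how shared reads were assigned.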

How the data were processed

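Per the labels' protocols, RNA of sorted lung macrophages was amplified with a SMART-Seq kit for low input and sequenced on a NextSeq system. The submitters' processing notes name STAR 2.5, mm10 and edgeR; of the counter, annotation and strand setting nothing is known from the sources used here. The deposited values are a signal per gene in scaled CPM, without a step stated by the authors. They equalled (reads + 0.5) over an effective library size for whole reads in 100% of values, within 0.001. A second table, in which the authors deposited log2 fold changes, p-values and a likelihood ratio score for d15 against naive, was used only where named. Here, log2(value + 1) was taken for genes that reached 1 in 2 or more libraries and fitted with limma 3.58.1 (R 4.3.3, mean-variance trend) over the 3 groups, with Benjamini-Hochberg adjustment over 11273 genes and a threshold of 0.05. Fold changes are on that scale and understate those of low genes. As alternatives, edgeR 4.0.16 and DESeq2 1.42.0 were run on the recovered reads. Other alternatives were other filters, pseudocounts and scalings, limma-voom, a length correction, a fit of 2 groups only, a replicate block and leaving out each library. Plain CPM of the recovered reads was added after seeing the data. The d15 columns carry numbers that differ from the sample titles, so their libraries are called A and B. Libraries held 27465745 to 39572173 recovered reads, counted without molecular identifiers. The limma fit was tested on simulated data for d15 and d35 against naive. The other fits and the d35 against d15 comparison were not. The 9 genes and the gene lists were chosen with earlier results of these data known, and the text names list genes called in any comparison and, for each of the 9, the 2 genes most like it, leaving out unnamed gene models. Aldoa, Pfkp, Hk2, Vegfa, Car9, Pdk1, Ndrg1, Higd1a, P4ha1, Ankrd37, Pdha1, Fundc1, Bpgm, Pgam2, Eno3, Eloc, Cul2 and the marker genes were named after their values were seen. Some items are not reported here.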

Additional observations from a re-analysis of the deposited data

Results flagged for a closer look

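For 4 of the 9 genes the change over naive macrophages differed between the times, by the test of d35 against d15 in the limma fit. The same held for 7.39% of all genes tested. The log2 difference, d35 minus d15, was 0.80 for Slc16a3, 0.53 for Pgam1, 0.37 for Pkm and -0.83 for Bnip3. Slc16a3 was called under all 18 alternatives, while the calls of Pgam1, Pkm and Bnip3 ended in the fit of 2 groups only. Slc16a3 and Bnip3 stood on opposite sides of the naive mean at d15. No test for outlying libraries was made, since each group has 2 or 3.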

How the results depend on the processing

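Over the 9 genes and 3 comparisons, a call of the main fit was lost in 20 of 495 alternative values and gained in 3. Another 468, which include results called in neither fit, kept their direction and their side of the threshold. A sign changed in 4, none of them past it: Pkm at d15 with plain CPM (-0.007934), Hif1a at d35 without d35 replicate 1 (-0.02025), and Bnip3 at d35 when naive replicate 1 (0.03389) or d35 replicate 2 (0.106) was dropped. Single libraries left out gave -0.02025 to 0.2151 for Hif1a and -0.156 to 0.106 for Bnip3 at d35. After length correction 0 of the 9 were called at d15. Fitted on 2 groups only, 1 was called between d35 and d15. DESeq2 called 1451 genes at d15 and 1368 between d35 and d15, against 493 and 833, and 2 groups only gave 1179 and 421. Leaving out 1 library gave 0 to 1 of the 9 at d15, 6 to 7 at d35 and 1 to 5 between the times, and 11 to 1084, 628 to 2288 and 184 to 1046 of all genes. At d15 all genes called numbered 231, 64 and 110 without naive replicates 1, 2 and 3, 87 and 11 without d15 A and B, and 1084 without d35 replicate 3. At d35 they numbered 907, 628 and 969 without naive replicates 1, 2 and 3, and 1013 and 980 without d35 replicates 1 and 3. Between the times they were 310 and 184 without d15 A and B. The cause was not tested. With the replicate block, naive against d35 gave 7 of the 9 and 1460 genes. Same-numbered libraries had correlations of -0.007, -0.05 and 0.15, and only number 3 correlated best with its own. No paired analysis was possible for d15 because its columns carry no matching numbers. Bnip3 had the fewest reads of the 9 genes, with 281 in its lowest library.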

Other observations

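Ratios between genes within a library do not depend on its scaling, and 4 were computed per kilobase, chosen after the values were seen. Ldha over Pkm was 1.97, 2.06 and 2.01 in naive, 2.24 and 2.17 in d15 and 1.94, 2.02 and 1.90 in d35 libraries, with d15 above the rest. Pgam1 over Pgk1 was 1.23, 1.15 and 1.13, then 1.12 and 1.26, then 1.40, 1.36 and 1.35, with d35 above the rest. Slc16a3 over Ldha was 0.0519, 0.0575 and 0.0433, then 0.0366 and 0.0349, then 0.0585, 0.0544 and 0.0526. Here naive and d35 overlapped and d15 was below both. Bnip3 over Hif1a was 0.171, 0.128 and 0.148, then 0.251 and 0.351, then 0.129, 0.120 and 0.148, with d15 above the rest. No test was made of these ratios.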
